A study of Mus musculus with 6 samples.

Results

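Replication-dependent histone genes were examined as chromatin-accessibility peaks, chosen by position alone: every peak lying within 1 kb of a mouse histone gene whose current or older RefSeq symbol belongs to the Hist1 to Hist4 clusters. The rule gave 71 genes and 58 peaks of 97124 in all. ATAC-seq, in which a transposase inserts sequencing adapters into accessible DNA, was performed on bone marrow B-cells of PEtg mice, which all samples share. The cells were separated by an H2B-GFP reporter, a fluorescent histone that dividing cells share out between their daughters. H2B-GFP high cells are labelled quiescent (3 samples) and H2B-GFP low cells proliferating (3 samples). The labels give neither the animals' age, nor the promoter that drives the reporter, nor whether samples are separate mice, so every p-value here rests on sample-to-sample spread, which may be technical.

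Replication-dependent histones are made in bulk during S phase to package newly copied DNA. H2A, H2B, H3 and H4 form the nucleosome core, and H1 binds the linker DNA between nucleosomes. Their genes lie in clusters and lack introns in their usual form. Most of their messages end in a stem-loop bound by SLBP instead of a poly(A) tail, and their transcription depends on NPAT at nuclear histone locus bodies. Many H2A and H2B genes are arranged head to head around a shared promoter.

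The largest clusters were the 2 Hist1 blocks on chromosome 13 (mm10). The block at chr13:21715711-22043658 held 24 genes and 16 peaks, and the block at chr13:23531044-23934913 held 32 genes and 29 peaks. The Hist2 block at chr3:96219885-96270192 held 10 genes and 8 peaks. The Hist3 block on chromosome 11 held 3 genes and 2 peaks, the H4 gene H4f16 on chromosome 6 had 1 peak, and the lone H2A pseudogene H2af-ps2 on chromosome 13 had 2. By class, a peak lay within 1 kb of 6 of 6 H1, 20 of 21 H2A, 16 of 19 H2B, 12 of 12 H3 and 13 of 13 H4 genes. The 4 genes without such a peak were H2bc1 and H2ac1, a testis-type H2B and H2A pair, and H2bc23 and H4bc24, which are H2B genes by their older symbols. Of the 58 peaks, 35 were near 1 gene only and 23 near 2 to 5 genes, so a peak is often shared by neighbours. The gene model of H2bc6 is long, and 6 peaks lay near or within it and near no other histone gene.

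The promoter sequences show how differently these classes are built. They are RefSeq sequences of the GRCm38.p6 assembly, read 5′ to 3′. The shared promoters H2ac12-H2bc12 (chr13:22035618-22035846, plus strand) and H2ac15-H2bc15 (chr13:21753887-21754101, plus strand) are shown because their peaks differed between the groups. The promoters of the H4 gene H4c11 (chr13:21734834-21735059, plus strand) and the linker histone gene H1f3 (chr13:23554832-23555057, plus strand) are shown to compare the classes. Capitals mark exact matches, on either strand, to the TATA box (TATAAA), the CCAAT box, the octamer (ATTTGCAT), the H1 box (AAACACA) or the H4 element (GGTCCG).
H2ac12-H2bc12: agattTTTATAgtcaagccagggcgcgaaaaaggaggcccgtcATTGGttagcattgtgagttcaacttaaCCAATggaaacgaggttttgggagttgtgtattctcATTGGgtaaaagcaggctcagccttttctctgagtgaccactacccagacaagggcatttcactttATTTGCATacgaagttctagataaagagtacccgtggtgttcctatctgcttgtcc
H2ac15-H2bc15: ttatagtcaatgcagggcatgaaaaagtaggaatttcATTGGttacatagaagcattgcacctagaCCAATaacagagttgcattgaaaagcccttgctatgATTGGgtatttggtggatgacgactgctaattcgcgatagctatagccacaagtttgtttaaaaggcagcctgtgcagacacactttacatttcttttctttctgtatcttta
H4c11: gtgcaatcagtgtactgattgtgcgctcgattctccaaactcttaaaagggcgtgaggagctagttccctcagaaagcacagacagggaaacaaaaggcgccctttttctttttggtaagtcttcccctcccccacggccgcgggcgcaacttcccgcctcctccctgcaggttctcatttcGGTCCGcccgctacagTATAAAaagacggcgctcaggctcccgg
H1f3: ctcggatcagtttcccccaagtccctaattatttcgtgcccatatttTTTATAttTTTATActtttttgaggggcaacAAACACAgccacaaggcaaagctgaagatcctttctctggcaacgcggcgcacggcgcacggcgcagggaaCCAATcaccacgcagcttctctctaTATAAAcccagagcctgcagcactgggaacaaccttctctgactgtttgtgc
Each window runs to 25 bases past the annotated start or starts. Matches are marked wherever they fall, so the TTTATA of H2ac12 lies past its annotated start. Likewise, the TATAAA of H4c11 spans its annotated start. The starts of H2ac12 and H2bc12 are 178 bp apart and those of H2ac15 and H2bc15 are 164 bp apart. The table held promoters of 62 of the 71 genes, 250 bases before to 50 after each start.

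The motif searched as the CCAAT box, bound by the factor NF-Y, occurred in 53 of 62 histone promoters against 37.4% of 32851 mouse promoters of the same length. It was found in all 6 H1, 18 H2A, 16 H2B and 10 H3 promoters, but in 3 of 12 H4 promoters. GGTCCG, a part of the element called site II of H4 promoters, was found in 11 of 12 H4 promoters, 1 of 16 H2B promoters and 1 of 10 H3 promoters, against 8.25% of all promoters. The octamer ATTTGCAT, which POU factors such as Oct-1 bind, occurred in 7 of 18 H2A and 7 of 16 H2B promoters, in no other class, and in 1.74% of all promoters. The H1 box AAACACA occurred in 5 of 6 H1, 2 of 18 H2A and 2 of 16 H2B promoters, in no H3 or H4 promoter, and in 7.18% of all promoters. TATAAA, the core promoter box, was in 35 of 62 histone promoters and 13.6% of all promoters. All 5 motifs were searched on both strands, an H2A match and an H2B match can be the same bases of a shared promoter, and a match is a description of the letters only.

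**Figure D1:**
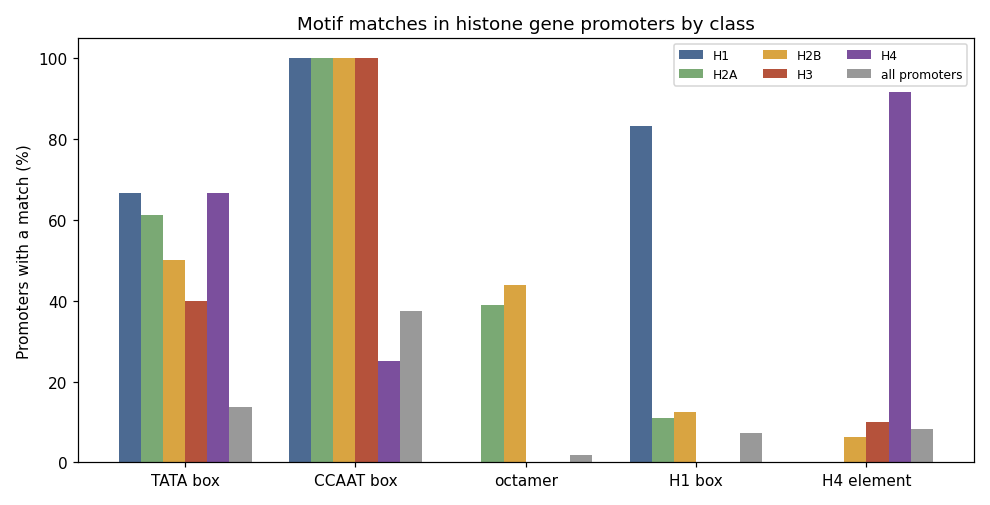
Bars give the percentage of 300-base promoters holding at least 1 match to each motif, by histone class (6 H1, 18 H2A, 16 H2B, 10 H3 and 12 H4 genes), with all 32851 promoters in grey. The H4 class has few CCAAT matches and is the class in which GGTCCG is frequent.

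Histone genes had some of the strongest peaks of these B-cells. The deposited signal is a scaled read count per peak, and its mean over the 6 samples was 1000 or more at 28 of the 58 histone peaks (48.3%), against 4.54% of all peaks and 5.42% of the 16726 other peaks within 1 kb of a protein-coding gene end. The median signal was 785 at histone peaks, 68.5 over all peaks and 122 at the other gene ends. Histone peaks were also wider, with a median of 1982 bp against 548 bp over all peaks and 911 bp at the other gene ends. Per kb of peak, the median signal was 430 at histone peaks, 128 over all peaks and 135 at the other gene ends. A gene end here is either end of a gene, so the other gene ends mix starts and 3′ ends. By contrast, 27 of the 28 histone peaks of 1000 or more covered an annotated start. Histone peaks were not compared with peaks at other gene starts alone. Of the 58, 4 ranked among the 100 strongest peaks and 18 among the 1000 strongest.

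The strongest histone peak ranked 5 of 97124. It covered 7586 bp at chr13:23570075-23577660, over H2ac8, H2bc8, H2bc7, H2ac7 and H3c4, and so spans 2 divergent H2A/H2B pairs and an H3 gene. Its signal was 6219, 9332 and 7716 in quiescent samples 1 to 3 and 7738, 10410 and 10038 in proliferating samples 1 to 3. The groups overlapped, and sample 1 was the lowest in each. Next came the peak over H3c3, H2ac5-ps and H2bc3 (mean 5382) and the peak over H2ac6 and H2bc4 (mean 5155). The strongest peak near an H1 gene, and the strongest near an H4 gene, was the one over H4c1, H3c1 and H1f1 (mean 4607). At the low end, the 2 peaks at the pseudogene H2af-ps2 had means of 26.1 and 23.

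**Figure D2:**
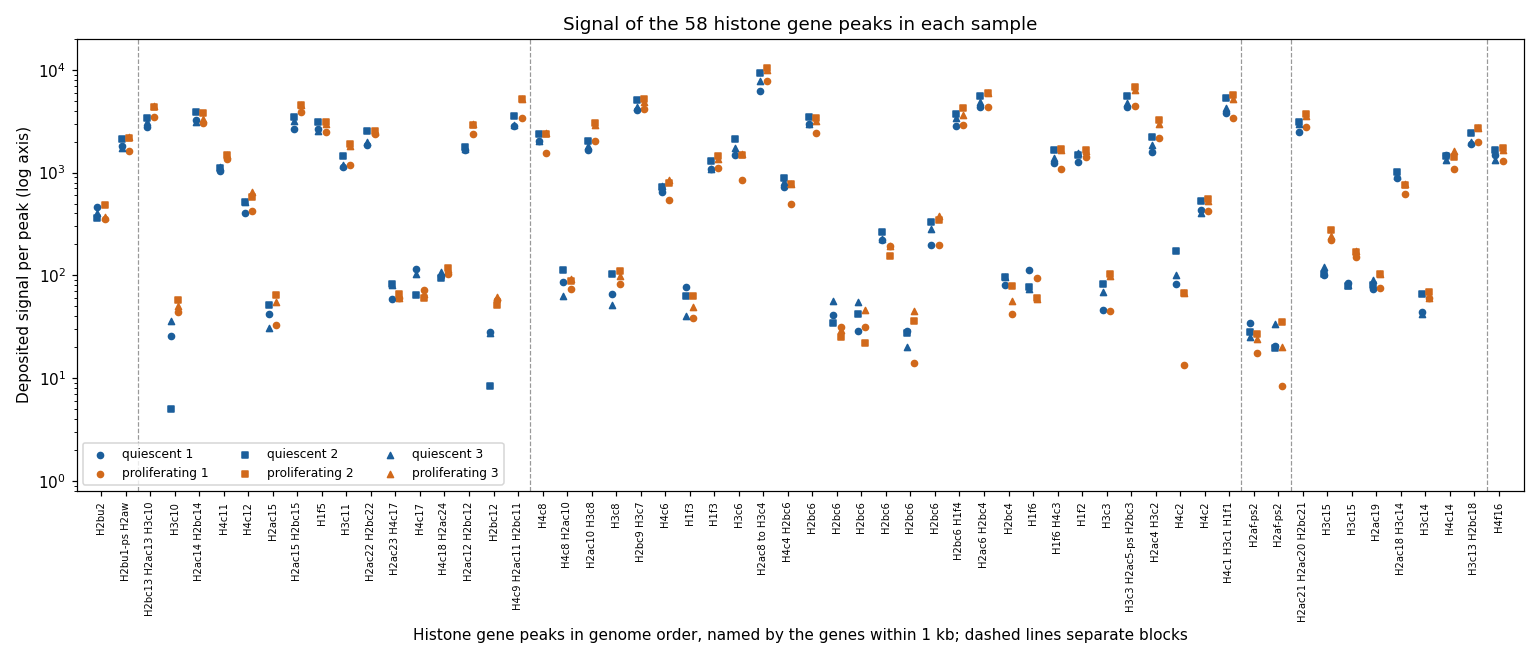
Each column is 1 of the 58 histone gene peaks in genome order, with the deposited signal on a log axis for the 3 quiescent samples (blue) and the 3 proliferating samples (orange); marker shape gives the sample number and dashed lines separate the blocks. Signals run from means of 23 and 26.1 at H2af-ps2 to 8576 at the peak over H2ac8 to H3c4, and the groups overlap at all but 13 peaks.

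Strong histone peaks lay mostly at gene starts. Of the 28 with a mean of 1000 or more, 27 covered an annotated start. Of the 62 genes with a promoter sequence, 53 had their start inside a histone peak. The median signal of the peak holding the start was 2794 for H1 (5 starts), 3106 for H2A (15), 3592 for H2B (13), 2312 for H3 (8) and 1004 for H4 (12). These are levels per peak, and 1 peak can count for several genes. Among the 62 genes there were 10 divergent H2A/H2B pairs, with starts 164 to 281 bp apart (median 204). In 7 of them both starts lay in 1 peak. Pairs in which a gene had no promoter sequence were not searched, so the clusters may hold more. Peaks over an annotated start or a whole gene numbered 36, with a median signal of 2035, and the other 22 had a median of 74.6.

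Genes whose promoter shares a long exact run with another histone promoter had weaker peaks, a difference given here as a description. An exact run of 50 bases or more shared with another histone promoter was found for 12 genes, and 6 of their starts lay in a peak, with a median signal of 310.2 and a range of 68.38 to 1267. Of the other 50 genes, 47 starts lay in a peak, with a median of 3106 and a range of 405.8 to 8576. The copied set includes H2bc23 and H4bc24, whose windows are identical over 300 bases, H4c17 and H4c18 (285 bases), H3c14 and H3c15 (231 bases) and H2ac18 and H2ac19 (219 bases). H4c11 (signal 1267) and H4c12 (514.7), which share only 72 bases, are in the set too. No source used here gives how reads matching both copies were placed, so the levels of these genes are uncertain and the part of such reads in their low signal was not tested. The 200 bases upstream of H3c14 (chr3:96246485-96246684, plus strand) and of H3c15 (chr3:96239128-96239327, minus strand) are printed to show the copy, with capitals for the longest run both windows share, 181 bases.
H3c14: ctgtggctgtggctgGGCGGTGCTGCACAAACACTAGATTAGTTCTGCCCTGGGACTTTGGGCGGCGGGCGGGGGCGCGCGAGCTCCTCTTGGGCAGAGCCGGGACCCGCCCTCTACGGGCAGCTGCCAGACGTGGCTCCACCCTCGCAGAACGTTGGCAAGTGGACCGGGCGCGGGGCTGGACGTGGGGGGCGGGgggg
H3c15: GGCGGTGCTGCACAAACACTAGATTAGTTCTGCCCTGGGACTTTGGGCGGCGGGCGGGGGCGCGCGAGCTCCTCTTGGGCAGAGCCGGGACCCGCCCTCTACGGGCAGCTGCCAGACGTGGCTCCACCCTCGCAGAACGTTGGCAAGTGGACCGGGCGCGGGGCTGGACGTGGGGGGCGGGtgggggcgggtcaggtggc
Neither start lay in a histone peak, although both genes had peaks within 1 kb.

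For the series as a whole, reads in peaks recovered from the deposited values numbered 8052661 to 48829949 per sample, lowest in proliferating sample 1. The median peak held 27 to 179 reads. Of 87411 peaks tested for a difference between quiescent and proliferating cells with limma, 5876 had an adjusted p under 0.05, 3501 higher and 2375 lower in quiescent cells. All 10 B-lineage marker genes had a peak at a gene end, and those at Ms4a1 and Pax5 included a peak called lower in quiescent cells. Of 10 myeloid marker genes, 4 had a peak, with a summed signal of 726 to 903 in quiescent and 465 to 535 in proliferating samples, and none was listed at Mpo, Elane, S100a8, S100a9, Cebpe or Csf3r. Of 8 T and NK cell genes, 5 had a peak (sums of 2620 to 2955 and 2535 to 2719, with none at Cd3e, Cd3g or Ncr1), and of 8 erythroid and megakaryocyte genes, 4 had one (1806 to 2148 and 1702 to 1943, with none at Gata1, Klf1, Hba-a1 or Itga2b). The myeloid sums were higher in every quiescent sample, but the strongest of the 4 peaks gave most of each quiescent sum. Among the others, Itgam was higher in quiescent samples without overlap (log2 fold change 0.69). The groups overlapped at Lyz2 (0.21) and at the strongest Cd14 peak (-0.17). The part of other cell types in the histone values was not tested.

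Few histone peaks differed between quiescent and proliferating cells, and those that did were lower in quiescent cells. By limma, 4 of the 58 were lower at an adjusted p under 0.05 and 0 were higher. Over all tested peaks, 6.72% were called, 2.72% lower and 4.01% higher, so the share of histone peaks called in either direction (4 of 58) is near the background. At an unadjusted p under 0.05, 14 of 58 passed, against 24.2% of all tested peaks, so this share too is near the background. The 4 peaks were the shared H2A/H2B promoters H2ac12-H2bc12 and H2ac15-H2bc15 and a pair of weak peaks at the 3′ side of the H3 gene H3c15. With sample number as a block (same-numbered samples varied together), limma called 14 of 58, 11 lower and 3 higher, against 18.3% of all peaks, 8.14% lower and 10.2% higher. All 4 peaks were among these 14.

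The H2ac12-H2bc12 peak (chr13:22034694-22037034) covers both genes, Hist1h2ah and Hist1h2bk by their older symbols. Its signal was 1643, 1775 and 1711 in the quiescent samples and 2366, 2901 and 2941 in the proliferating samples. All 3 quiescent values lay below all 3 proliferating values. The means were 1710 ± 66.2 and 2736 ± 321 (SD, n = 3 each), a log2 fold change of -0.67 ± 0.12 (SE; limma adjusted p = 0.0153). A narrow peak 66 bp further on, near H2bc12 alone, had a signal of 28.4, 8.35 and 27.3 in quiescent and 57.1, 51.1 and 60.9 in proliferating samples. It had the lowest fold change of the 58, -1.53 ± 0.46, and did not pass (limma adjusted p = 0.0811, or 0.0174 with the block). With limma-voom on recovered reads it passed under both scalings (adjusted p = 0.0162 with totals and 0.0283 with median-of-ratios). These calls rest on few reads: 30, 5 and 22 in quiescent and 23, 88 and 172 in proliferating samples. Without quiescent sample 2 the log2 fold change was -0.99 by limma.

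The H2ac15-H2bc15 peak (chr13:21752733-21755102) had a signal of 2643, 3457 and 3176 in quiescent and 3890, 4529 and 4578 in proliferating samples. The groups did not overlap, with quiescent sample 2 the closest to proliferating sample 1. The means were 3092 ± 413 and 4333 ± 384 (SD, n = 3 each), a log2 fold change of -0.49 ± 0.12 (SE; limma adjusted p = 0.0457). This call did not hold when no weak peaks were left out (limma adjusted p = 0.0515), nor without quiescent sample 1 (0.0674), 2 (0.0878) or 3 (0.127), nor without proliferating sample 2 (0.15) or 3 (0.153).

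The outer H3c15 peak (chr3:96236824-96237894) lies 584 bp beyond the 3′ end of H3c15, a minus-strand gene at chr3:96238479-96239127. Its signal was 99.8, 104 and 120 in quiescent and 223, 275 and 244 in proliferating samples. The inner peak (chr3:96237921-96238738) begins 26 bp further on and covers the last 260 bp of the gene, with 83.9, 79.1 and 80.7 in quiescent and 152, 167 and 173 in proliferating samples. In both, every quiescent value was below every proliferating value. The outer peak averaged 108 ± 10.7 against 247 ± 26.3 (SD, n = 3 each), a log2 fold change of -1.18 ± 0.19 (SE; limma adjusted p = 0.0125). The inner peak averaged 81.2 ± 2.44 against 164 ± 10.7, a log2 fold change of -1.01 ± 0.19 (limma adjusted p = 0.0206). Both are far weaker than the promoter peaks and neither reaches the gene's start. Without quiescent sample 2 or 3, or proliferating sample 2 or 3, none of the 4 peaks passed; for H2ac12-H2bc12 and the H3c15 pair, limma adjusted p then ran from 0.0571 to 0.0953.

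**Figure D3:**
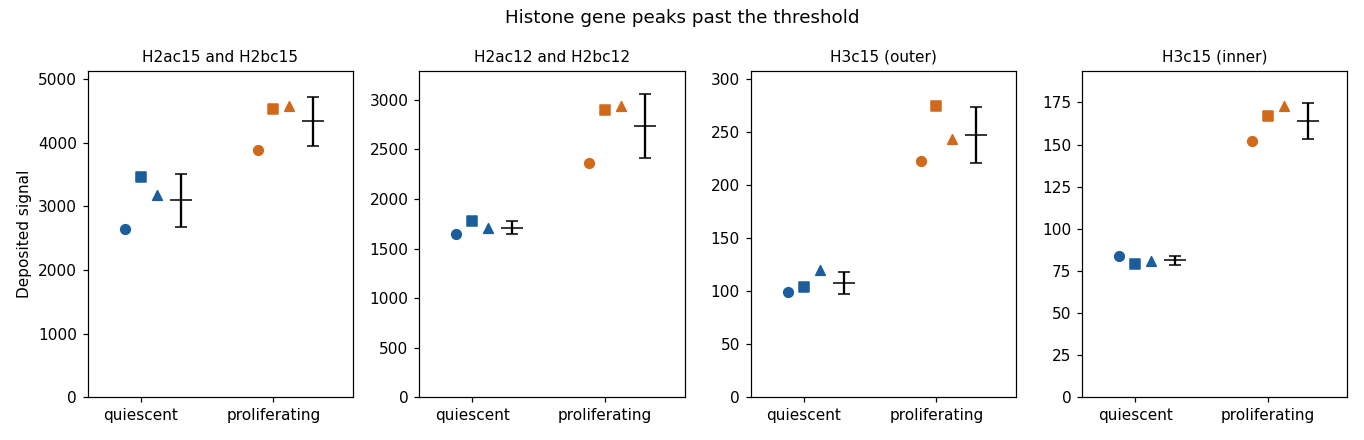
Each panel plots the deposited signal of 1 peak past the threshold in the 3 quiescent (blue) and 3 proliferating (orange) samples, with marker shape for the sample number and black bars for the group mean ± SD; axes start at 0. Quiescent samples lie below proliferating samples in each panel, by the widest margin relative to level in the H3c15 panels.

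With the deposited scaling, peaks near H3, H2A and H2B genes leaned lower in quiescent cells by small amounts. Those near H1 and H4 genes had medians close to 0. The median log2 fold change, quiescent minus proliferating, was -0.32 over the 17 peaks near H3 genes, -0.21 over 21 near H2A genes, -0.15 over 24 near H2B genes, -0.06 over 8 near H1 genes and -0.02 over 16 near H4 genes. A peak near several classes counts in each, and called peaks numbered 2 for H2A, 2 for H2B, 2 for H3 and 0 for H1 and H4. At 6.72% called over all tested peaks, classes of 8 to 24 peaks are too small for these counts to be told from the background. Over all 58 the median was -0.13, with 38 below 0 and a range of -1.53 to 1.48, beside -0.01 over all tested peaks and -0.08 over the other gene ends. Among the 28 strong peaks it was -0.15, with 23 below 0, and among the 30 weaker peaks -0.01, with 15 below 0. Within groups, the per-sample median deviation of the histone peaks had an SD of 0.20 in log2 units. The class medians are of the order of that spread or below it, and their differences were not tested. With median-of-ratios scaling, the median over all 58 was 0.13.

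**Figure D4:**
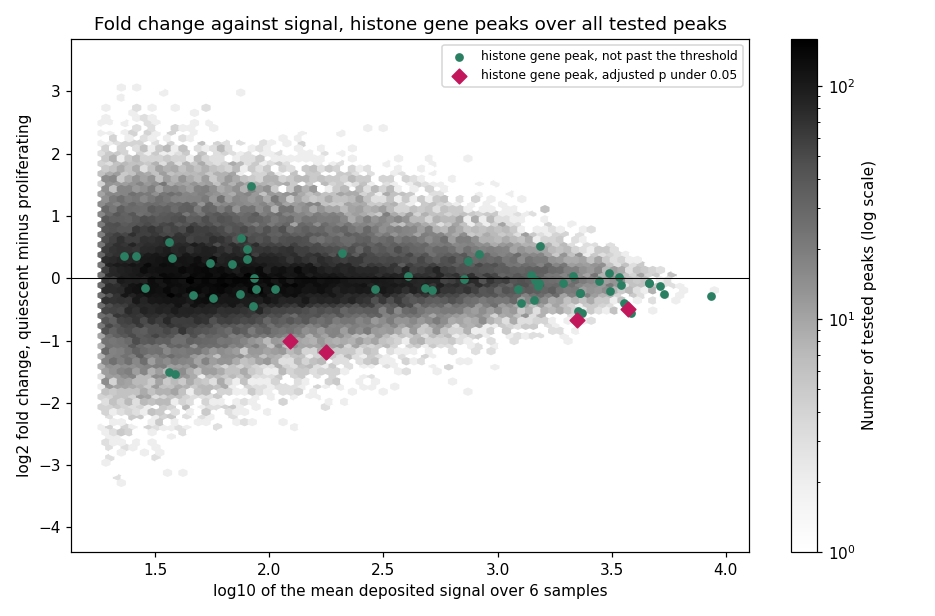
The log2 fold change (quiescent minus proliferating) is plotted against the log10 mean deposited signal over 6 samples, with the density of the 87411 tested peaks in grey, histone peaks in green and the 4 called histone peaks as red diamonds. Histone peaks crowd the right of the plot, and 23 of the 28 with a mean of 1000 or more lie below 0.

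The 2 Hist1 blocks differed in their counts, a difference that was not tested. In the block at chr13:21715711-22043658, 13 of 16 peaks were below 0 (median -0.31), with 2 called lower. In the block at chr13:23531044-23934913, 17 of 29 were below 0 (median -0.07), with 0 called (4 at an unadjusted p under 0.05). Groups did not overlap at 6 of 16 peaks of the first block, all lower, and at 4 of 29 of the second, all higher. Over the 58 peaks, 13 did not overlap, 8 lower and 5 higher, against 30.4% of all tested peaks, 14.9% lower and 15.4% higher. The Hist2 block had a median of -0.23 over 8 peaks, 2 of them called. Another 57 peaks inside the blocks, near no histone gene, had a median of -0.05, with 1 called higher.

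Several core histone peaks of the first Hist1 block changed call with the block on sample number. The peak over H2bc13, H2ac13 and H3c10 had a signal of 2788, 3379 and 3099 in quiescent and 3507, 4326 and 4451 in proliferating samples. The groups did not overlap, and the log2 fold change was -0.40 ± 0.12 (limma adjusted p = 0.0803, or 0.00707 with the block). The peak over H4c9, H2ac11 and H2bc11 had 2834, 3585 and 2890 against 3398, 5212 and 5158, with quiescent sample 2 above proliferating sample 1. Its log2 fold change was -0.55 ± 0.17 (limma adjusted p = 0.0925, or 0.00513 with the block). The single-gene H4c11 peak, whose promoter is printed above, had 1038, 1106 and 1141 against 1359, 1489 and 1474, without overlap, and -0.40 ± 0.11 (limma adjusted p = 0.0658, or 0.0189 with the block). H4c11 shares a 72-base run with the promoter of H4c12, so its reads may be split between them. H4c12 had 478 ± 62.8 against 551 ± 113 (SD, n = 3 each).

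In the second Hist1 block, the peaks over H2ac10 and H3c8 (-0.52, limma adjusted p = 0.095, or 0.00605 with the block) and over H2ac4 and H3c2 (-0.56, limma adjusted p = 0.0908, or 0.00241 with the block) had values on the same side. The strongest peak, over H2ac8 to H3c4, had a log2 fold change of -0.28 with a 95% interval of -0.64 to 0.07 (limma adjusted p = 0.31, or 0.0179 with the block). The remaining strong peaks of this block did not pass in either fit, except H3c6. At H3c6, an H3 gene, the signal was 1486, 2123 and 1730 in quiescent and 853, 1470 and 1515 in proliferating samples, on the opposite side. Its log2 fold change was 0.51 ± 0.23 (limma adjusted p = 0.209, or 0.0149 with the block), and proliferating sample 1 was the lowest value.

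The 5 peaks whose groups did not overlap with quiescent cells higher were weak or copied. The highest fold change of the 58 was at a narrow peak near H4c2 (chr13:23756391-23756620), with 82.1, 171 and 99.8 in quiescent and 13.3, 67.4 and 67.2 in proliferating samples. The log2 fold change was 1.48 ± 0.58 (limma adjusted p = 0.16, or 0.0125 with the block), and the value of proliferating sample 1, the shallowest library, was again the lowest. The next, at weak peaks near H2bc4 (0.65, limma adjusted p = 0.19) and H2bc6 (0.58, limma adjusted p = 0.299), did not pass in either fit. The peak over H2ac18, upstream of H3c14, had 881, 1005 and 930 against 623, 752 and 774, with no overlap. Its log2 fold change was 0.39 ± 0.14 (limma adjusted p = 0.118, or 0.0339 with the block). The other peak within 1 kb of H3c14 (chr3:96247715-96248164) had 44.3, 66.5 and 41.8 against 59.6, 68.1 and 59.6, a log2 fold change of -0.32 (limma adjusted p = 0.52).

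The other named peaks did not pass by limma, with or without the block. H2ac14 and H2bc14, the pair with the highest signal per kb (1775), had 3427 ± 426 in quiescent and 3385 ± 395 in proliferating samples, a log2 fold change of 0.02 with a 95% interval of -0.26 to 0.30, but 0.45 with median-of-ratios (limma-voom adjusted p = 0.0423). The peak over H4c1, H3c1 and H1f1 had -0.07 (-0.50 to 0.36), and H1f4, a linker histone gene that shares its peak with the long model of H2bc6, had -0.11 (-0.46 to 0.24). The solitary H4f16 gene had 1483 ± 159 against 1563 ± 236, and -0.07 (-0.40 to 0.26). H2bu1-ps and H2aw of the Hist3 block had 1881 ± 211 against 1993 ± 317 (limma adjusted p = 0.793). The narrow peak near H3c10 at chr13:21718981-21719181 had 25.7, 5.04 and 36 against 44.3, 57.5 and 50.5, without overlap and with a log2 fold change of -1.50 ± 0.61 (limma adjusted p = 0.173). It passed with reads scaled to totals (limma-voom adjusted p = 0.0328), on 27, 3 and 29 reads in quiescent and 18, 99 and 143 in proliferating samples.

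Histone peaks varied together between samples of the same group. Their summed signal was 73330, 92402 and 79507 in quiescent samples 1 to 3 and 76603, 104322 and 100774 in proliferating samples 1 to 3. That is 0.343%, 0.437% and 0.375% of the deposited signal in quiescent and 0.356%, 0.499% and 0.482% in proliferating samples. The groups overlapped, and sample 1 was the lowest of each. Of the 28 strong peaks, proliferating sample 1 was the lowest of its group at 28 and quiescent sample 1 at 22. Quiescent sample 1 was the deepest quiescent library (28194657 reads in peaks), whereas proliferating sample 1 was the shallowest of all (8052661). The part of depth in these low values was not tested. Between samples of the same number, the quiescent value was the lower at 17 of 28 strong peaks for number 1, at 22 for number 2 and at 27 for number 3. Without proliferating sample 1, the shallowest library, limma called 11 of 58 histone peaks, all lower, where 3.05% of all tested peaks were lower. These 11 included the 4 called with all samples.

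The direction of the strong histone peaks depended on how samples were scaled. Their median log2 fold change was -0.15 with the deposited scaling and -0.15 after quantile normalization, -0.06 with recovered reads scaled to totals, and 0.21 with median-of-ratios scaling, under which 7 of 28 were below 0. Other gene-end peaks of the same strength (907) moved alike, with medians of -0.04, -0.05, 0.07 and 0.33. Over all tested peaks the medians were -0.01, -0.03, -0.26 and 0.01. Set against the other strong gene-end peaks, the strong histone median was the lower under each of these 4 scalings, a difference that was not tested. Because both sets moved alike, the 4 scalings are not separate checks of it.

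**Figure D5:**
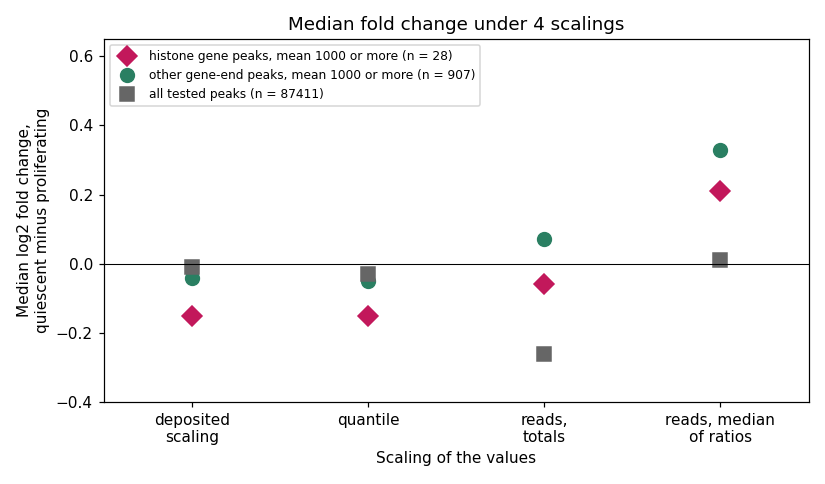
Points give the median log2 fold change (quiescent minus proliferating) under 4 scalings for strong histone peaks (red diamonds, n = 28), other strong gene-end peaks (green circles, n = 907) and all tested peaks (grey squares, n = 87411). The histone median goes from -0.15 to 0.21 and lies below that of the other strong gene-end peaks under each. Both sets of strong peaks moved alike, so the 4 scalings are not separate checks.

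Of the 4 called peaks, the H3c15 pair passed under every one of these scalings, with limma-voom adjusted p = 0.00615 for the outer and 0.0102 for the inner peak by median-of-ratios. The H2ac12-H2bc12 peak did not pass by median-of-ratios (-0.30, limma-voom adjusted p = 0.0936), nor did the H2ac15-H2bc15 peak (-0.07, limma-voom adjusted p = 0.691). With reads scaled to totals, 9 histone peaks were called, all lower (9.89% of all peaks were lower). With median-of-ratios, 5 were higher and 3 lower (9.98% and 3.99% of all peaks). Of all calls, 3501 of 5876 were higher in quiescent cells with the deposited scaling, 4377 of 13021 with totals and 8725 of 12211 with median-of-ratios.

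Genes that supply and process histones gave few calls. The list held 36 genes, of which 33 had a peak within 1 kb of a gene end, and the median log2 fold change over 58 tested peaks was -0.12. By limma, 1 of the 58 was lower in quiescent cells and 0 were higher, against 2.72% lower and 4.01% higher over all tested peaks. It lay at Lsm1, which encodes a subunit of a ring that acts in mRNA decay, with 735, 697 and 633 in quiescent and 911, 1270 and 1107 in proliferating samples, without overlap. Its log2 fold change was -0.66 ± 0.15 (limma adjusted p = 0.0367), and by median-of-ratios it did not pass (-0.37, limma-voom adjusted p = 0.14). A second Lsm1 peak (chr8:25804516-25805293), at the same end of the gene, had 373, 333 and 327 against 711, 474 and 475. Its log2 fold change was -0.66 ± 0.19 (limma adjusted p = 0.0716, or 0.00942 with the block). The remaining Lsm1 peaks, weaker and at the other end of the gene, leaned the other way. Their log2 fold changes were 0.39 and 0.31 (limma adjusted p = 0.525 and 0.448), the latter without overlap. The lowest fold change of the list, chosen here after its values were seen, was at Hira, which encodes a chaperone that deposits H3.3, with 147, 184 and 216 in quiescent and 266, 328 and 327 in proliferating samples. Its groups did not overlap, and its log2 fold change was -0.76 ± 0.20 (limma adjusted p = 0.0549, or 0.00812 with the block). It passed with limma-voom on reads scaled to totals (adjusted p = 0.0155) and with median-of-ratios (0.0388). The adjacent Hira peak (chr16:18876029-18877408), of like strength, had a log2 fold change of -0.26 (limma adjusted p = 0.388). By median-of-ratios that adjacent peak had -0.14 (limma-voom adjusted p = 0.613). At Npat, which encodes the coactivator of histone transcription, the signal was 536 ± 26.9 against 589 ± 25.1 (SD, n = 3 each), a log2 fold change of -0.14 (limma adjusted p = 0.572). At Slbp, which encodes the stem-loop binding protein, it was 454 ± 32.4 against 465 ± 61.9, a log2 fold change of -0.03 (limma adjusted p = 0.941).

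Replication-independent histones are also made outside S phase and can replace the others. Their genes gave 0 calls among 27 tested peaks by limma, against 6.72% of all tested peaks. At an unadjusted p under 0.05, 1 passed, against 24.2% of all. Limma-voom with median-of-ratios called 2, both higher, where 9.98% of all peaks were higher. The list held 11 genes, 10 with a peak, and the median log2 fold change was 0.08. The strongest peak was at Cenpa, the centromeric H3 variant, with 2698 ± 259 in quiescent and 2411 ± 42.8 in proliferating samples. Its log2 fold change was 0.16 (limma adjusted p = 0.392). By median-of-ratios it was 0.58 (limma-voom adjusted p = 0.00761), so Cenpa is 1 of the 2 called higher there. At H3f3b, an H3.3 gene, the strongest peak had 1307 ± 91.8 against 1340 ± 86.3, and at H2az2, an H2A.Z gene, 1063 ± 38.3 against 1194 ± 57.2.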

How the data were processed

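ATAC-seq values for 6 samples were analysed, 3 quiescent and 3 proliferating. Bowtie2, SAMtools, MACS2 and mm10 are named in the submitters' processing notes, and the library kit and 2 sequencing runs per sample in the labels' protocols. The authors deposited 1 table of signal per peak, a normalized read coverage whose scaling no source used here gives. From the values, each sample's signal is a whole number of reads times a step that varies with signal strength: over 95044 peaks above 0 in every sample, the product of the 6 rounded reads equals that of the 6 values at 99.8%, with 99.5% to 100% of values whole within 0.1. Of the 58 histone peaks, 52 met this identity. Since the values are scaled signal and not counts, the tests planned for counts were replaced by limma.

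Histone and list genes came from RefSeq (GRCm38.p6), and peaks within 1 kb of a gene were members. The members, lists, motifs and rules were chosen with earlier results of these data known. Log2(signal + 1) was tested with limma 3.58.1 (R 4.3.3, trend, Benjamini-Hochberg, threshold 0.05) after leaving out the weakest 10% of peaks; fold changes are on that scale. In simulated data limma called 65% of peaks changed by 1 log2 unit and 100% of those changed by 2, with 4 unchanged peaks called among 87411. The simulated reads were drawn independently with a single dispersion, without deviations shared between peaks or samples. Only peaks above the median signal were changed, so these rates may not hold for weaker peaks or for the real samples. Deviations of same-numbered samples correlated at 0.43, 0.285 and 0.21, so the fit with a block is given where it changes a histone call. Some different-numbered pairs correlated too (0.22 and 0.146 between samples 2 and 3), and the labels do not say what a number marks. Alternatives were a pseudocount of 10, no filter or 25% left out, quantile normalization, recovered reads with limma-voom under 2 scalings, other windows, the block, and each sample left out.

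Peaks named are those called, the 10 strongest, the strongest of each class and cluster, and the 3 highest and 3 lowest fold changes. H4c11, H4c12, H3c6, H2ac10-H3c8, H2ac4-H3c2 and H2ac18-H3c14 were added after their values were seen. Blocks are genes less than 200 kb apart. The result at 1 marker gene is not reported here.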

Additional observations from a re-analysis of the deposited data

How the results depend on the processing

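Counts of calls moved with the samples included and with the scaling. Histone peaks called numbered 9 (0 higher) with reads scaled to totals, 8 (5 higher) with median-of-ratios and 14 with the replicate block, and 0 to 11 when each sample was left out, with 0 without quiescent sample 2 or 3 or proliferating sample 2 or 3, and 11 without proliferating sample 1. All tested peaks called numbered 13021, 12211 and 15999 under those 3 settings and 0 to 8241 with samples left out. Leaving out quiescent sample 2 gave 161, quiescent sample 3 gave 0, and in the proliferating group sample 2 gave 790 and sample 3 gave 1160. Histone-supply peaks called numbered 5, 2 and 3, and 0 to 3 with samples left out; replication-independent histone peaks called numbered 2 by median-of-ratios. Named histone peaks called numbered 7 with totals, 9 with the replicate block and 0 to 7 with samples left out. The median log2 fold change of the histone peaks was 0.13 by median-of-ratios. The one named peak to change sign and pass was H2bc9-H3c7, from -0.08 to 0.37 by median-of-ratios (limma-voom adjusted p = 0.0432), and the cause was not tested. The pairing by sample number rests on the deviations alone, and in the lists it also moved peaks at Hira, Lsm1, Cd79b, Igll1, Rag1, Itgam, Cd3d and Gp9 past the threshold (limma adjusted p from 0.00812 to 0.0493) and changed no other call in the lists. Counting the overlap of peaks with genes in place of the 1 kb window gave 46 peaks, and a 3 kb window gave 65. The called histone peaks held at least 51 reads in every sample.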
